A study of Homo sapiens with 6 samples.

Results

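The genes described here encode the enzymes that carry acetyl-CoA through mevalonate to squalene and its epoxide, namely ACAT2, HMGCS1, MVK, PMVK, MVD, IDI1, FDPS, FDFT1 and SQLE. They were chosen by their place in the pathway, with earlier results of these data known, and they do not include every step of it. They are 9 of the 61552 gene identifiers counted, and all 9 were among the 17084 genes that passed the filter on low counts. RNA came from the established human line MDA-MB-231, grown from a triple-negative breast cancer. The cells received either 10 μM VNLG-152R, a compound developed as a degrader of the kinases MNK1 and MNK2, or its DMSO vehicle for 24 h. Each group had 3 samples. Nothing in the labels says whether the 3 samples of a group were separate cultures. The p-values therefore cover only the variation among these samples, part or all of which may be technical. Values are CPM (gene counts scaled to a common library total) after TMM normalization. Genes with an adjusted p under 0.05 in edgeR's quasi-likelihood test are called changed, where the Benjamini-Hochberg adjustment runs over every gene tested.

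The mevalonate pathway builds the 5-carbon isoprene unit from acetyl-CoA in the cytosol, endoplasmic reticulum and peroxisome. Farnesyl diphosphate is its branch point, from which squalene and then cholesterol are made, or the prenyl groups of proteins, dolichol, heme A and the side chain of coenzyme Q. In textbooks, the genes of the sterol arm are transcribed under SREBP-2, which leaves the endoplasmic reticulum for the Golgi when sterols are low, and whose target promoters commonly also carry sites for NF-Y and Sp1. SQLE protein is in addition degraded when cholesterol is high, which a measurement of RNA does not show.

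The promoters of the genes show what kind of sequence lies in front of 5 members that rose, and in front of PMVK, which did not pass the test. RefSeq windows (GRCh38.p14) of 300 bases, from 250 before to 50 after a start site, were matched by symbol. Those of 6 of the genes are shown. ACAT2 and SQLE, which also rose, and FDFT1 are not shown. In the windows below, capitals mark CCAAT (the core of an NF-Y site, read as ATTGG on the other strand) and TCACCCC (letters chosen after the sequences were seen). HMGCS1 has 2 windows and IDI1 has 3, and for each the window with the most CCAAT is shown.
HMGCS1, chr5:43313363-43313662 (minus strand): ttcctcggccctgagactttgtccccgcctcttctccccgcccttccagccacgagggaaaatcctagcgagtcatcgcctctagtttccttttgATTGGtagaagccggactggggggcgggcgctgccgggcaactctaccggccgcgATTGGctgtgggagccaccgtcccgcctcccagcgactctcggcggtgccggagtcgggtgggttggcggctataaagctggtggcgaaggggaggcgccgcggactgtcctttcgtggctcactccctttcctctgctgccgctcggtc
MVK, chr12:109573544-109573843 (plus strand): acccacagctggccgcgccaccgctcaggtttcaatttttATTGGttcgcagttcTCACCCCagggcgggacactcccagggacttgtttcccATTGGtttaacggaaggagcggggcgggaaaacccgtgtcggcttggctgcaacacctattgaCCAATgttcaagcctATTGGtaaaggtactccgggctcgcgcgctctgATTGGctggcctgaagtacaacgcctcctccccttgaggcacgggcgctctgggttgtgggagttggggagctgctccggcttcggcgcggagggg
MVD, chr16:88663042-88663341 (minus strand): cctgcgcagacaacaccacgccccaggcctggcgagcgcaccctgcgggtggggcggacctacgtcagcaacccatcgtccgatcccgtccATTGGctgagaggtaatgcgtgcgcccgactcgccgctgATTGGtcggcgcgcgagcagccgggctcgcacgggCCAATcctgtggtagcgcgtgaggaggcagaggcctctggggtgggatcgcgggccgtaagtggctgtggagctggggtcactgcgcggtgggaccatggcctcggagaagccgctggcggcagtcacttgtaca
IDI1, chr10:1048837-1049136 (minus strand): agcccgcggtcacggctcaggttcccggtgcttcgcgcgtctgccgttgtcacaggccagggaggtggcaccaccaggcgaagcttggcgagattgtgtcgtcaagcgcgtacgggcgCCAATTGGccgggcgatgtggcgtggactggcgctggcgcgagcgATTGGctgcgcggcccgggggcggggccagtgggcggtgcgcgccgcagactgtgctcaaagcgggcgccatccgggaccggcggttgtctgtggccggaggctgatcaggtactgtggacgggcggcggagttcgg
FDPS, chr1:155308616-155308915 (plus strand): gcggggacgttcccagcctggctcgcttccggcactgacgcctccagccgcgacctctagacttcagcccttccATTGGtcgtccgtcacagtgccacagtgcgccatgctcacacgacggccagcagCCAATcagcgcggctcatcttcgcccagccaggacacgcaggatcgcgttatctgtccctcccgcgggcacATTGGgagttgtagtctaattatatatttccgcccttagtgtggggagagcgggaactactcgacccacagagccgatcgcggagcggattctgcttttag
PMVK, chr1:154936670-154936969 (minus strand): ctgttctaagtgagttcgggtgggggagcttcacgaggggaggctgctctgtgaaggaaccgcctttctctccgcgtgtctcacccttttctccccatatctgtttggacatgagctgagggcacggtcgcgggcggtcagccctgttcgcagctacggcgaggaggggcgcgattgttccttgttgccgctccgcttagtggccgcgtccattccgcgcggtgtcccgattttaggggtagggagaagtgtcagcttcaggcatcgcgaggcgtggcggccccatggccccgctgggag

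Among the genes with 1 window, CCAAT was present on either strand 5 times for MVK, 3 times each for MVD and FDPS and 0 times for PMVK. The windows of HMGCS1 held it 2 and 0 times, and those of IDI1 3, 2 and 0 times. Among the 6 genes shown, windows without it were thus found for PMVK, HMGCS1 and IDI1. A count over all 9 genes, with chromosome 8 kept in, found a window with CCAAT for 5, namely HMGCS1, MVK, MVD, IDI1 and FDPS. It found none for SQLE, which also rose, or for FDFT1. Of 35116 windows of this length, 34.61% held CCAAT at least once and 10.75% held it 2 or more times. These shares are not comparable with the HMGCS1 and IDI1 windows shown, which were picked for this count. In the IDI1 window a pair of the matches lie within 1 palindrome, CCAATTGG, and overlap. The 9 letters TCACNCCAC, taken for the sterol regulatory element, matched none of these windows and 1.13% of all windows. The shorter TCACCCC matched the MVK window and 5.48% of all. GGGCGG, the GC box read by Sp1, matched all 6 windows shown and 44.95% of all, and the E-box CANNTG matched those of MVK, MVD and IDI1 and 68.68% of all. In the IDI1 window shown, the only E-box match lies within the palindrome CCAATTGG. A match describes the letters and is no evidence of binding, and the absence of a match refers only to this window.

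Of the 9 genes, 7 rose with VNLG-152R (ACAT2, HMGCS1, MVK, MVD, IDI1, FDPS and SQLE) and 0 fell. Since earlier results were known when the genes were chosen, this count is a description. By edgeR with an unadjusted p under 0.05, 8 were higher and 1 lower, and DESeq2 and limma-voom each called 8 higher and 0 lower. Over all genes tested, 3.76% were called higher and 5.19% were called changed in either direction. The median log2 fold change of the 9 genes was 0.77, and that of all genes tested was -0.0024. For the same 7 genes every VNLG-152R library lay above every control library, a separation found in 15.1% of all genes tested. Together the 9 genes summed to 590 ± 48.3 CPM with VNLG-152R and 356 ± 7.74 CPM in the controls (SD, n = 3 each), a ratio of 1.66. In bulk RNA a change in the RNA of each cell and a change in which cells are present cannot be told apart.

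**Figure D1:**
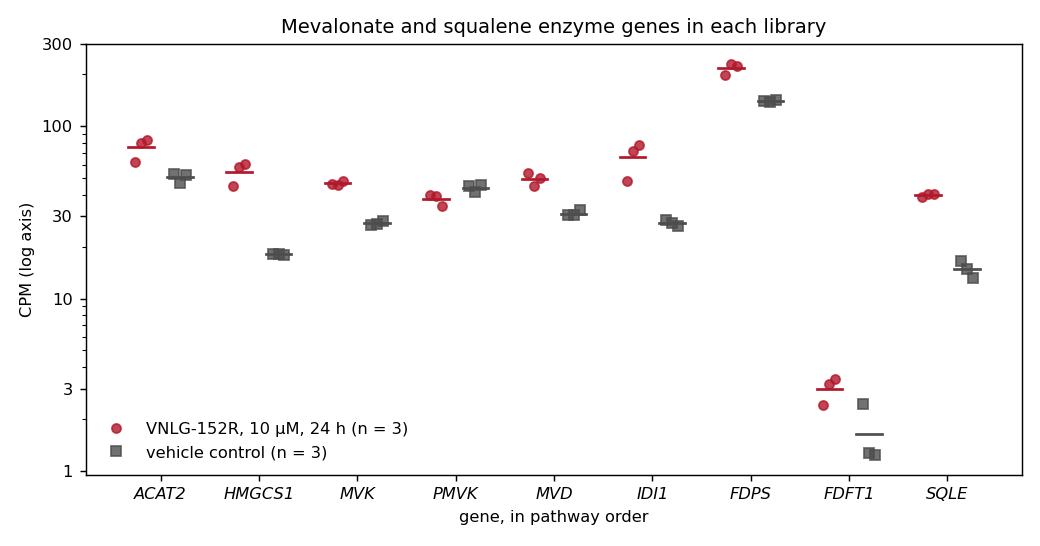
Level of each of the 9 enzyme genes (CPM, log axis) in each library, in pathway order, with VNLG-152R as red circles, vehicle control as grey squares and a line at the mean of each group. The groups are apart and VNLG-152R is higher for 7 genes, PMVK is lower in every VNLG-152R library, and FDFT1, at 1.23 to 3.42 CPM, overlaps.

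The pathway opens with ACAT2, the cytosolic thiolase that joins acetyl-CoA units to acetoacetyl-CoA (chr6:159760328-159779055, plus strand, GRCh38). It had 62.2, 80.1 and 83.8 CPM in VNLG-152R replicates 1 to 3, against 52.6, 46.9 and 51.9 CPM in the controls. All treated libraries lay above all controls, with replicate 1 the nearest to them. The difference on the log2 scale was 0.58 ± 0.11 (standard error), with an adjusted p of 0.0117 by edgeR. It was the smallest of the 7 called changes, and the call was lost without VNLG-152R replicate 3 (0.50, adjusted p = 0.060, the highest over 16 alternatives). In the annotation, 52.27% of the exon sequence of ACAT2 lies under genes on the opposite strand. SOD2-OT1 covers 33.91% of it, and SOD2, whose identifier there is not among those counted, 26.54%. TCP1, a subunit of the cytosolic chaperonin, covers 9.23% and shares 397 bases with ACAT2. TCP1 averaged 269 ± 15.6 CPM with VNLG-152R and 338 ± 42.3 CPM in controls (SD, n = 3 each). This difference of -0.33 on the log2 scale missed the threshold (adjusted p = 0.0786). The libraries kept strand, but the strand setting of the counting is not given in the sources used here.

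HMGCS1, the cytosolic synthase that adds the next acetyl unit to make HMG-CoA, had the largest change of the 9 (chr5:43289395-43313512, minus strand). Its levels were 44.9, 57.8 and 60.5 CPM with VNLG-152R and 18.2, 18.1 and 18.0 CPM in the controls. The controls agreed closely, while VNLG-152R replicate 1 lay below the other treated libraries. The fold change was 3.01, or 1.59 on the log2 scale (standard error 0.11, 95% interval 1.35 to 1.83, adjusted p = 5.19e-06 by edgeR). Only 0.299% of all genes tested had a larger log2 fold change.

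Of the 3 genes for the kinases and the decarboxylase that turn mevalonate into isopentenyl diphosphate, 2 rose. MVK, mevalonate kinase (chr12:109573255-109598117, plus strand), had 46.5, 45.6 and 48.2 CPM with VNLG-152R and 26.7, 27.2 and 28.2 CPM in the controls. Both groups were tight and apart, with a log2 fold change of 0.77 ± 0.079 (SE) and an adjusted p of 0.00012 by edgeR. MVD, the decarboxylase of the same arm (chr16:88651935-88663161, minus strand), had 53.8, 44.8 and 50.0 CPM with VNLG-152R and 30.5, 30.4 and 32.6 CPM in the controls. MVD thus rose by 0.67 ± 0.09 on the log2 scale (SE, adjusted p = 0.00117).

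PMVK, the kinase that acts between MVK and MVD, was the member whose value lay below 0 (chr1:154924734-154936991, minus strand). It had 39.9, 39.4 and 34.4 CPM with VNLG-152R and 44.8, 41.6 and 45.3 CPM in the controls. Every treated library was below every control, a separation found in 2294 of the 17084 genes tested, and the gaps were small. The log2 fold change of -0.21 (standard error 0.088, 95% interval -0.40 to -0.022) did not pass the threshold (unadjusted p = 0.0315, adjusted p = 0.174 by edgeR). It stayed between -0.25 and -0.13 under all 16 alternatives run and was called in none of them. PMVK has a single annotated transcript of 1280 bases, the shortest of the 9 genes, and no annotated gene overlaps its exons on either strand.

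IDI1 makes dimethylallyl diphosphate, the starter unit for chain growth, from isopentenyl diphosphate (chr10:1039152-1049170, minus strand). It had 48.0, 71.9 and 77.9 CPM with VNLG-152R and 28.7, 27.6 and 26.5 CPM in the controls. The groups were far apart, although VNLG-152R replicate 1 lay well below the other two. IDI1 rose by 1.26 ± 0.15 on the log2 scale (SE, adjusted p = 0.000352 by edgeR), and by 1.44 without that library. Its relative IDI2, which lies beside it on chromosome 10, had 0 counts in every VNLG-152R library and at most 3 counts in a control library.

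FDPS, farnesyl diphosphate synthase, was the most abundant of the 9 (chr1:155308748-155320666, plus strand). It had 198, 231 and 223 CPM with VNLG-152R, against 141, 139 and 142 CPM in the controls. The groups were apart by more than the spread in either, and the log2 fold change was 0.63 ± 0.084 (SE), with an adjusted p of 0.00116 by edgeR. IDI1 and FDPS have processed pseudogenes that could take some of their reads, and the highest level of the 11 matched was 0.18 CPM in any library. Pairs that aligned to more than 1 place, 7.81% to 8.12% of all pairs tallied in a library, are in no gene's count. The low levels of the pseudogenes therefore do not show whether reads of IDI1 or FDPS were lost in this way.

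Squalene synthase, encoded by FDFT1, commits farnesyl diphosphate to sterols (chr8:11795573-11839309, plus strand). Its levels were far below those of its pathway partners, at 2.41, 3.19 and 3.42 CPM with VNLG-152R and 2.45, 1.26 and 1.23 CPM in the controls. Control replicate 1 lay within the treated range, and the other controls lay below all treated libraries. The log2 fold change of 0.87 (standard error 0.25, 95% interval 0.33 to 1.41) missed the threshold (adjusted p = 0.0634 by edgeR). The call depended on the setting. Without control replicate 1 the log2 fold change was 1.27 (adjusted p = 0.00568), and without control replicate 3 it was 0.70 (adjusted p = 0.221). Over the 16 alternatives the adjusted p ran between 9.94e-05, with no filter, and 0.221. The counts behind these values were 163, 244 and 283 with VNLG-152R and 149, 76 and 84 in the controls. Read pairs ambiguous between genes, 4.81% to 5.16% of all pairs tallied in a library, are in no gene's count, and their part in the low level of FDFT1 was not tested.

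SQLE, squalene epoxidase, performs the first oxygen-dependent step of sterol synthesis (chr8:124998497-125022283, plus strand). It had 38.9, 40.4 and 40.6 CPM with VNLG-152R and 16.6, 14.9 and 13.2 CPM in the controls. The treated libraries were nearly equal, and all lay above 2 times the highest control. This rise of 1.42 ± 0.096 on the log2 scale (SE, 95% interval 1.21 to 1.63, adjusted p = 4.27e-06 by edgeR) was exceeded among the 9 only by that of HMGCS1. No annotated gene overlaps its exons.

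**Figure D2:**
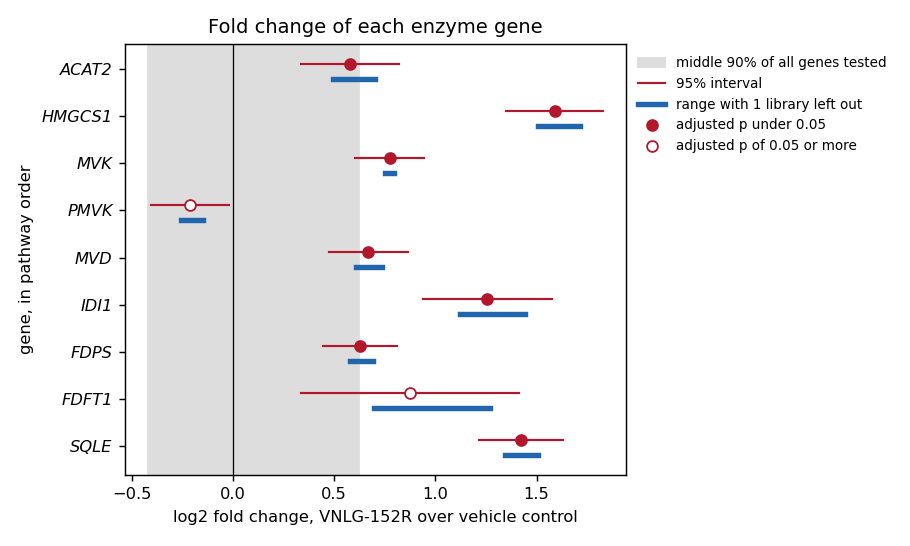
Each enzyme gene's log2 fold change with VNLG-152R relative to vehicle control, with its 95% interval in red, and in blue its range when each of the 6 libraries was left out in turn; the grey band spans the 5 to 95% quantiles of all genes tested, -0.42 to 0.62. HMGCS1, SQLE and IDI1 lie farthest to the right, PMVK is the only gene left of 0, and FDFT1 has the widest interval.

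Because long transcripts collect more reads, the genes were ordered by CPM per kilobase of annotated exon. With VNLG-152R, FDPS was highest at 58.4 ± 4.66 and PMVK second at 29.6 ± 2.34 CPM per kilobase (SD, n = 3). ACAT2 (17.5), IDI1 (15.2), HMGCS1 (11.6) and MVD (10.5) followed, each overlapping the next over the 3 libraries. SQLE (9.29), MVK (7.22) and FDFT1 (0.578) came last, each apart from its neighbours. In the controls, FDPS (37.9 ± 0.401) and PMVK (34.3 ± 1.59) also led in level per kilobase, followed by ACAT2 (11.7). MVD (6.61) and IDI1 (6.35) overlapped, MVK (4.22) came next, HMGCS1 (3.84) and SQLE (3.46) overlapped, and FDFT1 (0.317) was last. HMGCS1 thus stood above MVK with VNLG-152R and below it in the controls, and the libraries of the pair did not overlap in either group. As shares of the summed CPM of the 9 genes, not corrected for length, FDPS made up 36.8% with VNLG-152R and 39.6% in the controls. HMGCS1 made up 9.21% with VNLG-152R and 5.08% in the controls, and PMVK 6.42% with VNLG-152R and 12.3% in the controls.

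**Figure D3:**
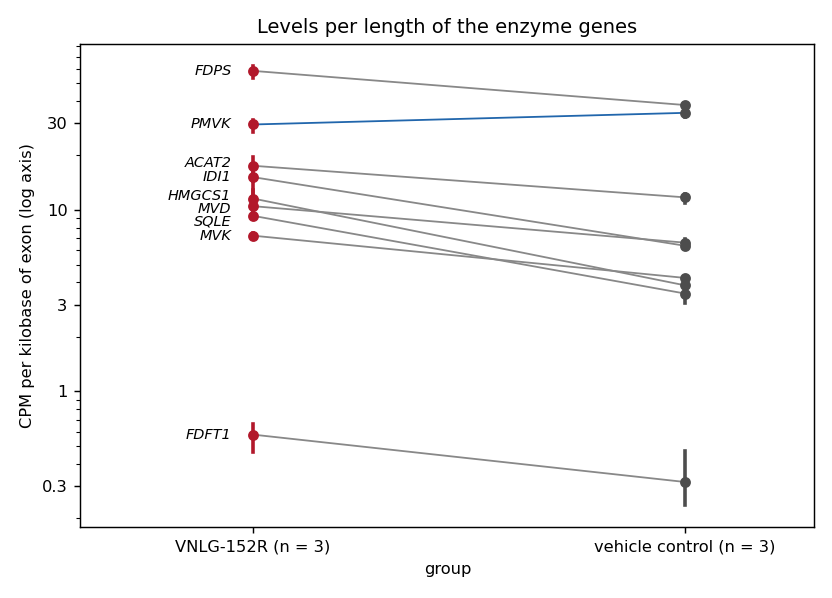
Mean level of each enzyme gene in CPM per kilobase of exon (log axis), VNLG-152R on the left and vehicle control on the right, with bars over the range of the 3 libraries and lines joining the same gene. PMVK, in blue, is the only gene with a lower mean with VNLG-152R, and the lines of HMGCS1 and SQLE cross that of MVK.

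The treated libraries differed among themselves in a way that followed the genes. VNLG-152R replicate 1 lay below the mean of its group for 7 of the 9 genes, by 0.43 on the log2 scale for IDI1, 0.27 for HMGCS1, 0.26 for ACAT2 and 0.30 for FDFT1. It lay above the mean for MVD (0.12) and PMVK (0.076), and was within 0.04 of it for SQLE and MVK. The order of these deviations followed the GC content of the transcripts, from 41.1% in IDI1 and 40.2% in HMGCS1 to 63.7% in MVD. Over the 9 genes the rank correlation of the deviation with GC content was 0.83, and over 16725 genes tested it was 0.55 for this library, where all genes share the library. In the other 5 libraries it lay between -0.36 and 0.38 over the same genes. The log2 fold change itself had a rank correlation of -0.017 with GC content. With each library corrected for GC content, an alternative added after the deviations were seen, the log2 fold change of IDI1 was 1.24 with a standard error of 0.12, and that of HMGCS1 was 1.57 with a standard error of 0.082. All 7 calls held with this correction, and FDFT1 came just under the threshold as well (0.87, adjusted p = 0.0499).

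**Figure D4:**
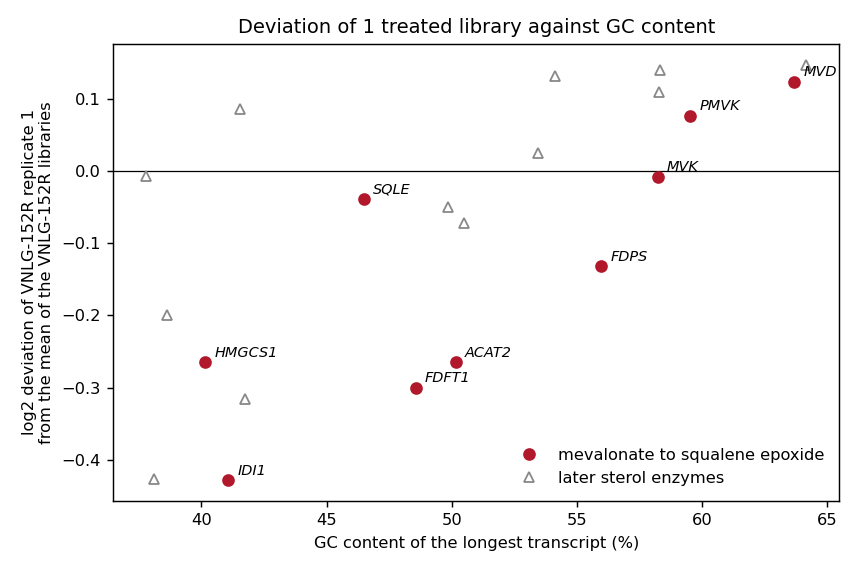
Log2 deviation of VNLG-152R replicate 1 from the mean of the 3 VNLG-152R libraries (vertical) against the GC content of the longest transcript in percent (horizontal), for the 9 enzyme genes (red circles) and 12 later sterol enzymes (open triangles). IDI1 and HMGCS1, with the lowest GC content of the 9, lie well below 0, and MVD, with the highest, lies above it.

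Downstream of squalene epoxide, 12 genes of the later steps from lanosterol to cholesterol were tested, of which 9 rose and 0 fell, with a median log2 fold change of 0.84. The share of all genes tested that was called higher was 3.76%. At an unadjusted p under 0.05 by edgeR 1 was lower, and DESeq2 and limma-voom also called 9 higher and 0 lower. MSMO1, a C4-methylsterol oxidase, had the largest, 1.93, with 74.6 ± 17.6 CPM for VNLG-152R and 19.5 ± 1.77 CPM for controls (SD, n = 3 each). DHCR7, which reduces 7-dehydrocholesterol, had 158 ± 14.0 CPM for VNLG-152R and 54.3 ± 7.07 CPM for controls, or 1.54 on the log2 scale. CYP51A1, the 14-alpha-demethylase, had 1.02 at a mean of 3.52 CPM with VNLG-152R and 1.73 CPM in controls. SC5D (1.01), HSD17B7 (0.89), LSS (0.79), NSDHL (0.52) and TM7SF2 (0.50) were also called higher, TM7SF2 losing its call without control replicate 3 (0.52, adjusted p = 0.0586). Not called were EBP (0.23, adjusted p = 0.351), LBR (0.18, adjusted p = 0.193) and FAXDC2 (-0.53, adjusted p = 0.135). These lists were chosen with earlier results of the same libraries known, so the counts describe and do not test the pathway.

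Branches of the pathway also use farnesyl diphosphate for other products. Of 18 genes for the making of geranylgeranyl diphosphate, dolichol, coenzyme Q and for protein prenylation, 0 rose and 1 fell, with a median log2 fold change of -0.061, beside 5.19% of all genes called in either direction, so a count of 1 says nothing particular about these branches. DESeq2 and limma-voom gave the same counts, and at an unadjusted p under 0.05 by edgeR 0 were higher and 3 lower. The one called was PDSS1, a subunit of the synthase for the coenzyme Q side chain, with 14.3 ± 0.49 CPM with VNLG-152R and 19.5 ± 2.65 CPM in controls (log2 fold change -0.44, adjusted p = 0.0333 by edgeR). That call was lost without either of control replicates 1 and 3 or VNLG-152R replicates 2 and 3 (highest adjusted p = 0.101). COQ2 (-0.22) and RCE1 (-0.19) were not called. GGPS1, which extends farnesyl diphosphate to geranylgeranyl diphosphate, had 3.48 ± 0.381 CPM with VNLG-152R and 3.53 ± 0.431 CPM in controls (log2 fold change -0.018, 95% interval -0.33 to 0.30). Whether these genes differed in response from the 9 was not tested.

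Among 8 genes of sterol sensing, 2 rose, beside 3.76% of all genes called higher, and the list's median was 0.056. INSIG1, which holds the SREBP escort SCAP in the endoplasmic reticulum and is itself an SREBP target, had 67.3 ± 6.38 CPM for VNLG-152R and 12.6 ± 1.33 CPM for controls (log2 fold change 2.41, adjusted p = 1.51e-07). SREBF2, which encodes SREBP-2, had 211 ± 20.8 CPM for VNLG-152R and 99.0 ± 11.3 CPM for controls (log2 fold change 1.09, adjusted p = 7.35e-05 by edgeR). SREBF1, which encodes SREBP-1, had 110 ± 15.8 CPM for VNLG-152R and 106 ± 5.68 CPM for controls and was not called (log2 fold change 0.056, 95% interval -0.17 to 0.28). MBTPS2, the protease that makes the second cleavage of SREBP, was not called either (0.10). Of 3 genes for the ubiquitin-dependent turnover of SQLE protein, 0 were called by edgeR, 0 by limma-voom and 1 by DESeq2, and 1 had an unadjusted p under 0.05. That gene was MARCHF6, the ligase, at 203 ± 11.4 CPM for VNLG-152R and 165 ± 5.44 CPM for controls (log2 fold change 0.29, adjusted p = 0.0576). DESeq2 called MARCHF6 (0.29, adjusted p = 0.0145), as did the GC correction and a filter at a mean of 1 CPM.

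**Figure D5:**
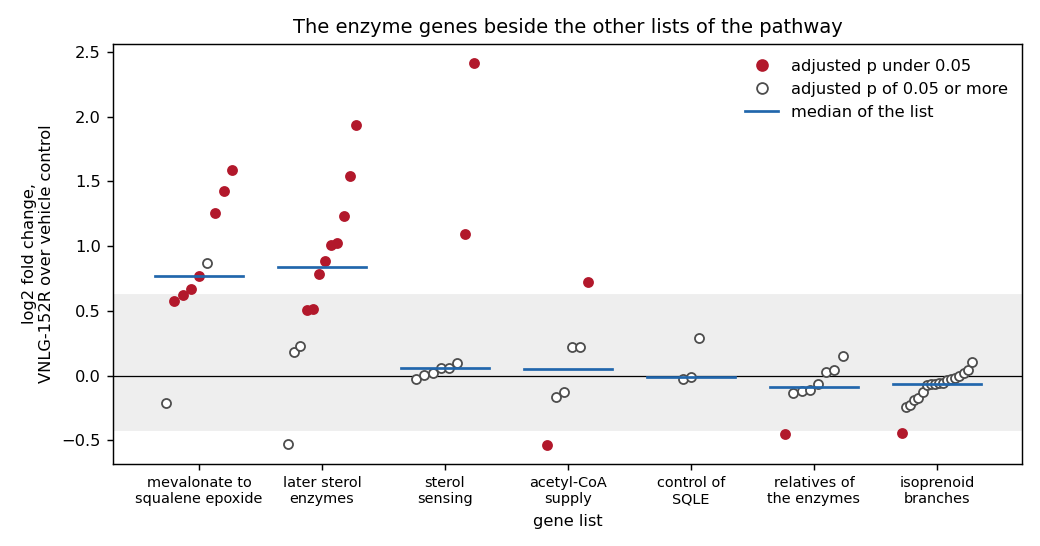
Log2 fold changes with VNLG-152R relative to vehicle control for all tested genes of each list, filled red where called and open where not, with a blue line at the median of each list and a grey band over the 5 to 95% quantiles of all genes tested. The medians are 0.77 for the 9 enzyme genes and 0.84 for the later sterol enzymes, and between -0.087 and 0.056 for the other 5 lists.

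Some relatives of the enzymes catalyze similar reactions in other compartments or pathways. Of 12 such genes, 8 passed the filter, of which 0 rose and 1 fell, as by DESeq2 and limma-voom, and 0 were higher at an unadjusted p under 0.05 by edgeR. With 3.76% of all genes called higher, a count of 0 among 8 is no result about the relatives. ACAT1, the mitochondrial counterpart of ACAT2, had 80.4 ± 4.07 CPM for VNLG-152R and 86.9 ± 2.06 CPM for controls (log2 fold change -0.11, adjusted p = 0.429 by edgeR). ACAA2, a mitochondrial thiolase of fatty acid oxidation, was the one called, with 38.7 ± 1.5 CPM for VNLG-152R and 53.0 ± 7.11 CPM for controls (log2 fold change -0.45, adjusted p = 0.0241). Its call was lost without either of control replicates 1 and 3 or VNLG-152R replicates 2 and 3 (highest adjusted p = 0.0773). HADHB (-0.12) and GALK1 (-0.13) were not called.

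The neighbours of the 9 genes on their chromosomes, and the counted genes whose exons overlap theirs, were 25 in all. Of these, 20 passed the filter, 3 rose and 0 fell. Among all genes tested, 3.76% were called higher and 5.19% in either direction. At an unadjusted p under 0.05 by edgeR 5 were lower, DESeq2 called 2 lower and limma-voom 0. MMAB, which encodes an adenosyltransferase for cobalamin, starts 290 bases from MVK in the opposite direction in the RefSeq windows, and 211 bases of the 300-base windows are the same. It averaged 31.5 ± 2.82 CPM with VNLG-152R and 19.2 ± 1.09 CPM in controls (SD, n = 3 each). MMAB rose by 0.72 ± 0.093 on the log2 scale (SE, adjusted p = 0.000937 by edgeR), beside 0.77 for MVK. The exons of the pair overlap by 306 bases on opposite strands. On either side of PMVK, whose own value was -0.21, KCNN3 rose by 0.66 (adjusted p = 0.00113) and PBXIP1 by 0.39 (adjusted p = 0.045) on the log2 scale. The call of PBXIP1 was lost on leaving out any 1 of the 6 libraries (highest adjusted p = 0.141). RUSC1, 229 bases beyond the end of FDPS, was at -0.31 (adjusted p = 0.0586), and CTSB, beyond the end of FDFT1, had 0.31 (adjusted p = 0.17).

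The genes whose pattern over the 6 libraries was most like the mean of the 9 were ACOT1, SC5D, ZNF615, LTN1 and GRIK2, with Pearson's r of 0.999, 0.997, 0.995, 0.993 and 0.992 on log2 CPM. The points are 6 libraries in 2 groups, and 1.22% of 12503 genes considered had an r above 0.95. ACOT1, a cytosolic acyl-CoA thioesterase with a near-identical neighbour in its family, had 1.98, 2.46 and 2.44 CPM with VNLG-152R and 1.07, 0.847 and 0.984 CPM in the controls (log2 fold change 1.25, adjusted p = 0.00188). LTN1, a ligase of ribosome quality control, was called at 0.37 (adjusted p = 0.0226), while ZNF615 (0.18) and GRIK2 (0.50) were not called. The call of LTN1 was lost without any 1 of 4 libraries and with the replicate number as a block. It was also lost with the length correction (0.26, adjusted p = 0.109 by edgeR). A likeness of this kind does not separate the size of a change from its steadiness, as the values of ZNF615 show.

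The libraries held 69923839 to 82151816 counts with VNLG-152R and 60122936 to 68583224 in the controls, so every treated library was the deeper. Thinning all libraries to the shallowest kept all 7 calls. Markers of the line were present, with VIM at 3397 to 4323 CPM for VNLG-152R and 4911 to 5166 CPM for controls (log2 fold change -0.39, adjusted p = 0.0472). The call of VIM was lost with a filter at a mean of 1 CPM, with the length correction and with the replicate number as a block. It was also lost without any 1 of 5 libraries (all but VNLG-152R replicate 1), with an adjusted p of up to 0.174. ESR1 was at most 0.097 CPM, PGR at most 0.58 CPM and CDH1 at most 0.70 CPM, while ERBB2 reached 118 CPM. Among 10 markers of other cells, PTPRC, CD3E and DCN were at or near 0, 4 were tested and 0 were called by edgeR, by DESeq2 or by limma-voom, and 0 had an unadjusted p under 0.05. Their summed level was 42.4 to 43.8 CPM with VNLG-152R and 39.3 to 42.6 CPM in the controls, mostly PECAM1 and COL1A1.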

How the data were processed

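The authors made strand-specific polyA libraries from 6 samples, read them in pairs, and deposited raw counts per Ensembl gene. The submitters' processing notes name HISAT, HTSeq, DESeq and GRCh38 without versions. Neither the annotation release nor the strand setting is given in the sources used here. The special classes of HTSeq were left out of totals and tests, among them pairs in no gene (3.36% to 5.05% of all pairs tallied with VNLG-152R, 2.63% to 3.17% in controls).

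The 3 VNLG-152R and 3 control samples were compared by edgeR 4.0.16 (quasi-likelihood test, R 4.3.3) with TMM, filterByExpr and Benjamini-Hochberg adjustment over 17084 genes (threshold 0.05). The standard error is the absolute log2 fold change over the square root of F. Log2 CPM used a prior count of 2. Symbols were found for 42047 of 61552 identifiers. Coordinates, lengths and overlaps come from GENCODE release 29, and promoters from RefSeq.

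Alternatives were RLE, library size only, no filter, a replicate block, a filter at a mean of 1 CPM, limma-voom (limma 3.58.1), DESeq2 1.42.0, a length correction (lowess, span 0.3), thinning (seed 1) and each library left out. A GC correction and the motif TCACCCC were chosen after seeing the data. The code was tested on simulated counts. An exact permutation test of 3 against 3 cannot give a two-sided p under 0.1, so none was used. The members and lists were chosen with earlier results of these data known. Named genes are the 9 members, up to 4 of each list with the smallest p in each direction, relatives, neighbours, and the 5 genes most alike in pattern with a mean of at least 1 CPM. Called genes of the later sterol enzymes are named beyond that rule, and some genes that the rule would name are not reported here. A planned comparison of protein sequences was not run.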

Additional observations from a re-analysis of the deposited data

How the results depend on the processing

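HMGCS1, MVK, MVD, IDI1, FDPS and SQLE were called higher, and PMVK was not called, under all 16 alternatives. The number of members called was 6 to 8. The call of ACAT2 was lost on leaving out VNLG-152R replicate 3 (log2 fold change 0.50, and 0.70 at the other end of the range with 1 library left out). FDFT1 was called with no filter (0.87), the GC correction (0.87), DESeq2 (0.86) and limma-voom (0.94). It was also called without control replicate 1 (1.27) or VNLG-152R replicate 1 (1.01). The range for FDFT1 with 1 library left out was 0.70 to 1.27. Over all genes, 887 were called. The number was 1539 with no filter (1056 higher and 483 lower), 1459 with DESeq2, 1794 with the GC correction, and 264 to 948 with 1 library left out. The isoprenoid branches had 0 calls with the length correction, 2 with the GC correction and 0 to 1 with 1 library left out, the relatives 0 to 1 and the acetyl-CoA list 1 to 2 with 1 library left out. The genes for SQLE turnover had 1 call with a mean of 1 CPM, with the GC correction and with DESeq2. The neighbours had 5 calls with no filter, the GC correction and DESeq2. SREBF1 changed sign when VNLG-152R replicate 1 was left out (range with 1 library left out -0.065 to 0.13). GGPS1 changed sign with the length correction (0.013) and when control replicate 1 (0.079) or VNLG-152R replicate 1 (0.059) was left out (range -0.10 to 0.079). On CPM, 3 of the 5 genes most alike in pattern stayed among the first 5. With the longest transcript as length, 6 of the 9 members kept their rank with VNLG-152R and 9 in controls. The causes of these shifts were not tested. With all libraries thinned to 60122936 counts, the depth of the shallowest, the log2 fold change of FDFT1 was 0.82 (adjusted p = 0.0822).

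Same-numbered samples did not deviate together (r of -0.19, -0.17 and -0.11 over genes), and the main test used no pairing. The deviations also followed GC content (rank correlation 0.55 in VNLG-152R replicate 1 and -0.35 in control replicate 1). They therefore cannot show whether the samples were paired. With the replicate number as a block, 397 genes were called (310 higher and 87 lower), 7 members, 0 genes of the isoprenoid branches, 0 relatives and 1 of the acetyl-CoA list.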

Other observations

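The supply of acetyl-CoA, the substrate of ACAT2 and HMGCS1, was followed in 6 genes, of which 1 rose and 1 fell. Of all genes tested, 5.19% were called in either direction. ACSS2, which makes acetyl-CoA from acetate in the cytosol and nucleus, had 57.7 ± 5.21 CPM for VNLG-152R and 34.9 ± 2.84 CPM for controls (SD, n = 3 each, log2 fold change 0.72, adjusted p = 0.00103 by edgeR). ACSS1, the mitochondrial enzyme of the same reaction, had 5.52 ± 0.233 CPM for VNLG-152R and 7.97 ± 0.43 CPM for controls (log2 fold change -0.53, adjusted p = 0.0148). The call of ACSS1 was lost without control replicate 3 or VNLG-152R replicate 3 (highest adjusted p = 0.0931). ACLY, which makes cytosolic acetyl-CoA from citrate, was at 490 ± 41.5 CPM for VNLG-152R and 419 ± 45.3 CPM for controls and was not called (log2 fold change 0.22, adjusted p = 0.214). SLC25A1, the mitochondrial citrate carrier, was not called either (0.22, adjusted p = 0.145), nor were PDHA1 (-0.17) and AACS (-0.12).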
